A study of Mus musculus with 4 samples.

Results

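Kinesins are motor proteins that walk along microtubules or take them apart. The kinesin genes described here are the 31 whose symbol is Kif followed by a number and at most a few letters, out of 15002 genes with a UMI in 4 mouse medulloblastomas. Each kinesin was measured in 4 cell states per tumour (G2/M, S-phase, non-dividing and neuronal) among the 3222 of 6734 cell barcodes that held at least 500 unique molecular identifiers (UMIs). All 4 tumours, G-SmoAMPK1 to G-SmoAMPK4, carried hGFAP-Cre, the activated Smoothened allele SmoM2, and Prkaa1fl/fl and Prkaa2fl/fl. The mice were untreated and 16 days old (P16). Prkaa1 and Prkaa2 encode the catalytic subunits of AMP-activated protein kinase, and hGFAP-Cre limits recombination to cells in which the GFAP promoter has been active and to their descendants. The labels put the 4 tumours in 1 group, so kinesins were compared between cell states of the same tumour and not between genotypes.

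In a dividing cell, kinesins push spindle poles apart, move chromosomes to the metaphase plate and build the bundle of microtubules where the cell is cut apart. In a neuron, which no longer divides, other kinesins carry vesicles, mitochondria and mRNAs from the cell body into the axon. A Sonic hedgehog medulloblastoma holds both kinds of cell, because its granule neuron progenitors keep dividing while part of their progeny differentiates. From textbook roles, 11 of the 31 genes were placed among mitotic kinesins and 15 among transport kinesins. A further 4 were placed among kinesins of the cilium or centriole, and 1 (Kif26a) in none of these. The 15 include Kif2a, a microtubule depolymerase that acts in axons and at spindle poles.

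The states were assigned from UMIs of marker genes, none of which was a kinesin or a listed partner of one. A barcode was called G2/M, S-phase or neuronal when at least 1.5%, 1.0% or 2.0% of its nuclear-encoded UMIs came from 42, 53 or 42 markers respectively, and non-dividing when all 3 shares were low. A barcode that met both the G2/M and the S-phase threshold was called G2/M, which held for 321 of the 788 G2/M barcodes (95 of 190, 116 of 221, 35 of 117 and 75 of 260 in tumours 1 to 4). This gave 788 G2/M, 556 S-phase, 607 non-dividing and 653 neuronal barcodes, and the other barcodes were set aside. The share in G2/M was 24.8%, 27.4%, 20.7% and 24.01% in tumours 1 to 4. Levels here are UPM, UMIs per 1000000 nuclear-encoded UMIs of the same tumour and state. Summed markers of Sonic hedgehog progenitors such as Gli1, Ptch1 and Atoh1 were at 3598 to 5922 UPM in the dividing and non-dividing states and at 1756 to 2589 in the neuronal state. The 12 oligodendrocyte markers summed to 367 to 905 UPM in non-dividing sums and 254 to 678 in the other states, and the 9 astrocyte markers to 467 to 1443 and 252 to 980.1. Both lists were highest in the non-dividing state in every tumour, and the part of such cells in the results was not tested. Tumours 1 and 2 stood apart from tumours 3 and 4: the median barcode had 10.2% and 11.6% mitochondrial UMIs, against 2.33% and 1.79%. No barcode was shared between tumours, and the labels give no batch.

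Sequence just upstream of the annotated starts is shown for 6 kinesins, because the promoters of the mitotic and the transport kinesins differed in how often they held one short motif. TTTGAA is the core of the cell cycle genes homology region, an element known from promoters of genes that peak in G2/M. TTTGGCGC is a form of the E2F site, known from genes induced earlier in the cycle. The 120 bases before the start of 4 mitotic kinesins and 2 transport kinesins are given 5′ to 3′ on the gene's strand from RefSeq (GRCm38.p6), with either motif, on either strand, in capitals. TTTGAA on the opposite strand reads TTCAAA, and TTTGGCGC reads GCGCCAAA. Kif11 (chr19:37376262-37376381, plus strand), Kif15 (chr9:122950961-122951080, plus strand), Kif22 (chr7:127042421-127042540, minus strand), Kif18a (chr2:109280618-109280737, plus strand), Kif5c (chr2:49619166-49619285, plus strand) and Kif1b (chr4:149307699-149307818, minus strand) read as follows.
Kif11: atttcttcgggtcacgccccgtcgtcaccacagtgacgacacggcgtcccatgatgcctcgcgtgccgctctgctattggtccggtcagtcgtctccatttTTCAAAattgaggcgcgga
Kif15: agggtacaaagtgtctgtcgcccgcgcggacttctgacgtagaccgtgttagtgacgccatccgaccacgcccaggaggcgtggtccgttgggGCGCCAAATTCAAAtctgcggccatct
Kif22: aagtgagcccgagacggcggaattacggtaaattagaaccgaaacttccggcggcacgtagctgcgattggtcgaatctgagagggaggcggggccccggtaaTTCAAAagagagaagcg
Kif18a: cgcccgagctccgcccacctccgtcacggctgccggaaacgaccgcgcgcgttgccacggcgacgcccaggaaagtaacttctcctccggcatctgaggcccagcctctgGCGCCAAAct
Kif5c: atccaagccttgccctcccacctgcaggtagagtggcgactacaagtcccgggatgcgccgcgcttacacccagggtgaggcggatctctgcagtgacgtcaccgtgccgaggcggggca
Kif1b: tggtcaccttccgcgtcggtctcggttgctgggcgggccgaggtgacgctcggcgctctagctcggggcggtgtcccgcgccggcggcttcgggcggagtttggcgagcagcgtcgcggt

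Within a window of 250 bases before to 50 after the start, TTTGAA was present on either strand in 9 of the 10 mitotic kinesins with a listed promoter, all but Kif18a. The same window held it in 1 of 11 transport kinesins (Kif1a, 44 bases before the start) and in 17.9% of all 32851 listed promoters. The transport kinesins shown above, Kif5c and Kif1b, are among those without it. In Kif11, Kif15 and Kif22 the first base of the match nearest the start lay 19, 19 and 17 bases before it, and Kif15 and Kif22 held a second match 234 and 215 bases before the start. In Kif4, Kif18b, Kif20b and Kif23 it lay 3 to 20 bases after it, and in Kif14 and Kif2c it lay 228 and 103 bases before it. For Kif11, Kif23, Kif2c and Kif5c the sequence just after the listed start was not found in a transcript of the gene. Their starts, and distances from them, are less certain. TTTGGCGC was present in Kif15 and Kif18a, in no listed transport kinesin and in 0.514% of all promoters. In Kif15 it ended where TTTGAA began. CCAAT, the box bound by NF-Y, was present in 6 of 10 mitotic and 3 of 11 transport kinesins, against 37.4% of all promoters. TTTCCCGC, a further E2F form, was present in none of the listed mitotic or transport kinesins and in 1.07% of all promoters. These matches describe letters in a window and do not show that a factor was bound.

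The summed level of the 11 mitotic kinesins was highest in G2/M and that of the 15 transport kinesins was highest in neuronal barcodes, in every tumour. In G2/M the mitotic sum was 4644, 4291, 2672 and 2846, with a mean over tumours of 3613 ± 999 (SD, n = 4). It was 845 ± 258 in S-phase, 233 ± 107 in non-dividing and 214 ± 96.7 in neuronal barcodes (SD, n = 4). The transport sum was 7233, 5499.6, 3733 and 3885 in neuronal barcodes, a mean of 5087 ± 1638 (SD, n = 4). It was 2359 ± 812 in G2/M, 2453 ± 780.3 in S-phase and 3081 ± 1229 in non-dividing barcodes (SD, n = 4). The mitotic sums of G2/M lay above those of every other state. The neuronal transport sums lay above all G2/M and S-phase sums and overlapped with the non-dividing ones, and tumours 1 and 2 were higher than tumours 3 and 4 in every state.

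**Figure D1:**
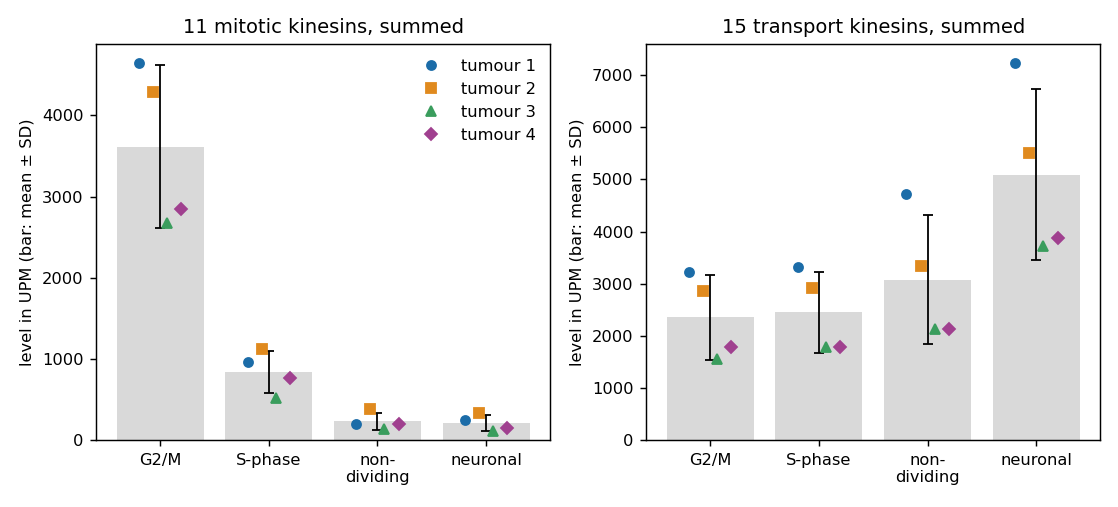
Summed level of the mitotic (left) and transport (right) kinesins in UPM by cell state. Bars are means of 4 tumours with SD, and points are tumours. The G2/M points of the mitotic kinesins sit between 2672 and 4644, and the points of the other states reach at most 1124.

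Of the 31 kinesins, 18 had enough UMIs to be tested, 9 mitotic and 9 transport kinesins. Sums per tumour and state were compared with edgeR's quasi-likelihood test with the tumour as a block, and p-values were adjusted by Benjamini-Hochberg over 3623 genes. All 9 tested mitotic kinesins were higher in G2/M than in neuronal barcodes, where 22.0% of all genes tested passed in that direction. Of the 9 tested transport kinesins, 8 were lower in G2/M, where 17.7% of all genes passed in that direction. The median log2 fold change was 4.04 over the mitotic and -0.90 over the transport kinesins tested, against 0.07 over all genes tested. The filter on low counts keeps a gene that is high in 1 state, so these counts describe the genes that passed. Of all 11 mitotic kinesins, the 2 untested ones included, each was higher in G2/M than in neuronal barcodes without overlap. The share of all genes separated in this way was not computed, so that count stands without a background. States were themselves defined by expression in the same cells, so these p-values describe how states differ and do not show that the states exist.

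Kif11, the kinesin-5 motor that slides spindle microtubules apart, was at 974, 779, 525 and 477 UPM in G2/M of tumours 1 to 4. In neuronal barcodes it was at 34.6, 37.9, 10.5 and 18.9. The lowest G2/M value was above the highest neuronal value, and the log2 fold change was 4.70 ± 0.27 (SE; edgeR adjusted p = 3.7e-19). Kif15, a kinesin-12 that shares the work of keeping the spindle bipolar with Kif11, was at 686, 937, 345 and 373 in G2/M. Its neuronal values were 20.8, 56.9, 21.0 and 31.4. Tumour 2 held the highest Kif15 level in both states, whereas tumour 1 held the highest Kif11 level in G2/M.

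Chromosome-bound and kinetochore motors showed the same separation of states. Kif4, a chromokinesin that works with Prc1 at the spindle midzone, was at 428, 321, 266 and 320.4 in G2/M and at 27.7, 37.9, 10.5 and 6.29 in neuronal barcodes. Kif22, the chromokinesin that pushes chromosome arms away from the poles, was at 180.4, 191, 243 and 204 in G2/M and at 20.8, 9.48, 10.5 and 18.9 in neuronal barcodes. Kif2c, which takes microtubules apart at centromeres, was at 159.8, 114, 118 and 209 in G2/M against 6.93, 9.48, 0 and 6.29. Its neuronal level rests on 3 UMIs, and the ratio of summed levels was 27.8 with an exact 95% Poisson interval of 9.32 to 136. Kif18a, which damps chromosome movements at the plate, was at 278, 256, 94.0 and 162 in G2/M and at 20.8, 37.9, 0 and 18.9 in neuronal barcodes. For all 4 genes the groups did not overlap, and the log2 fold changes were 4.04, 3.62, 4.56 and 3.30 in the order given.

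Motors of late mitosis and cytokinesis were also high in G2/M. Kif20b, needed for completion of cytokinesis, was at 1015, 920.2, 525 and 493 in G2/M and at 62.3, 37.9, 42.1 and 44.0 in neuronal barcodes, a log2 fold change of 3.91 ± 0.27. Kif23, the motor subunit of centralspindlin, was at 619, 463, 313 and 352 in G2/M. In neuronal barcodes Kif23 had 3 and 9 UMIs in tumours 1 and 2, or 20.8 and 85.3 UPM, and no UMI in tumours 3 and 4. Kif20a, which carries the chromosomal passenger complex to the midzone, was at 92.8, 92.6, 149 and 135 in G2/M against 20.8, 0, 21.0 and 6.29. Kif20a, Kif22 and Kif2c were the tested mitotic kinesins whose G2/M level was not highest in tumour 1 or 2. Every one of the 9 mitotic calls against neuronal barcodes held in each alternative in which the gene was tested.

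**Figure D2:**
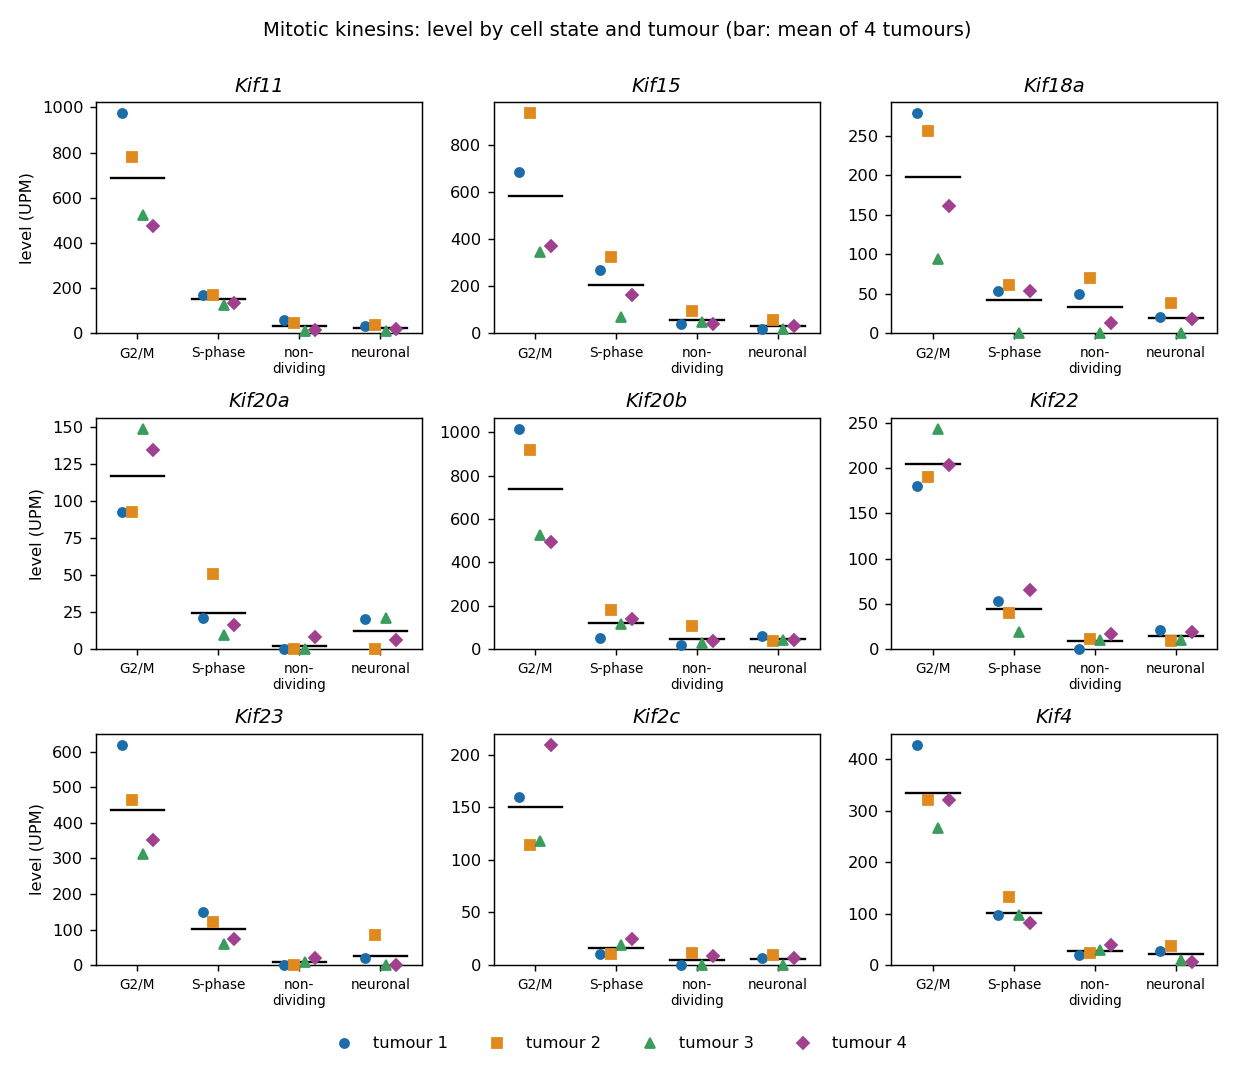
Level of the 9 tested mitotic kinesins in UPM (linear axes from 0, one scale per gene) by cell state. Points are tumours and black bars are means. In each panel the 4 G2/M points lie above all other points, for Kif11 between 477 and 974.

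The same 9 mitotic kinesins were higher in G2/M than in non-dividing barcodes, where 7.23% of all genes tested were higher. Kif23 had the largest log2 fold change of them in that comparison, 5.07 ± 0.42 (SE; edgeR adjusted p = 1.0e-13), with 378 UMIs in G2/M and 6 in non-dividing barcodes. Kif18a had the smallest, 2.74 ± 0.37, and its call ended without the tumour block (adjusted p = 0.059). Between neuronal and non-dividing barcodes edgeR called 0 of these 9 genes (adjusted p from 0.23 to 0.99), where 10.7% of all genes tested were higher and 11.4% lower. Of the same 9, 0 had an unadjusted p under 0.05 and 0 were called by DESeq2, which called 17.1% of all genes in either direction. The 9 genes passed the filter on low counts through the dividing states. Each had 2 to 26 UMIs in non-dividing and 3 to 24 in neuronal barcodes over the 4 tumours. That comparison therefore has little depth behind it and does not show that the states are alike. In tumours 1 and 2 alone Kif23 was called higher in neuronal barcodes (5.67, edgeR adjusted p = 0.018), from 3 and 9 UMIs against 0 and 0. In tumours 3 and 4 its counts lay the other way, 0 and 0 against 1 and 5.

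Of the 9 tested mitotic kinesins, 6 were higher in S-phase than in non-dividing barcodes (Kif23, Kif11, Kif22, Kif15, Kif4 and Kif20b), where 4.80% of all genes tested were higher and 2.68% lower. Kif11 was at 172, 172, 127 and 135 in S-phase of tumours 1 to 4 against 60.3, 46.9, 9.93 and 17.1 in non-dividing barcodes, without overlap. Its log2 fold change was 2.26 ± 0.36 (SE; edgeR adjusted p = 1.1e-05). Kif15 was at 268, 324, 68.1 and 164 in S-phase against 40.2, 93.9, 49.7 and 38.4, so that tumour 3 in S-phase lay below tumour 2 in non-dividing barcodes. Its log2 fold change was 1.84 ± 0.30 (adjusted p = 2.5e-05). Kif23 rose by a log2 fold change of 2.89 ± 0.58 from 6 UMIs in the non-dividing state (adjusted p = 0.00057).

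None of the 6 S-phase calls held in every alternative, and Kif11 lost its call in tumours 1 and 2 alone (edgeR adjusted p = 0.074). Kif20b (1.45 ± 0.38, edgeR adjusted p = 0.0096) lost its call without tumour 3 (adjusted p = 0.062) or without tumour 4 (adjusted p = 0.21). Kif22 (2.01 ± 0.57, edgeR adjusted p = 0.018) lost it without tumour 1 (adjusted p = 0.097) or tumour 4 (adjusted p = 0.22). In tumours 1 and 2 alone 2 mitotic kinesins (Kif15 and Kif23) were higher, where 3.07% of all genes were called in either direction. In tumours 3 and 4 alone 4 were, where 6.64% were called. Kif20a, Kif2c and Kif18a did not pass, with log2 fold changes of 2.32 ± 0.94, 1.54 ± 0.82 and 0.62 ± 0.52. S-phase barcodes also held more G2/M marker UMIs than non-dividing ones, a median share of 0.52 to 0.73% against 0.14 to 0.27% per tumour, and the part of late S-phase or mixed barcodes was not tested.

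From S-phase to G2/M all 9 mitotic kinesins were higher again, where 3.06% of all genes tested were higher and 1.27% lower. This compares G2/M barcodes, 40.7% of which also met the S-phase threshold, with S-phase barcodes below the G2/M threshold, and their part was not tested. The step was largest for Kif2c, with a log2 fold change of 3.15 ± 0.40 (SE; edgeR adjusted p = 6.5e-08), from 10 UMIs in S-phase to 146 in G2/M. It was smallest for Kif15, 1.52 ± 0.19 (adjusted p = 5.4e-08), followed by Kif4 at 1.79 ± 0.24. The difference in step between genes was not tested. Without the tumour block 5 of the 9 calls were left. Those of Kif15, Kif18a, Kif20a and Kif23 ended (edgeR adjusted p = 0.20, 0.31, 0.15 and 0.21). Kif18a had no UMI in S-phase of tumour 3 and 53.2 to 60.7 UPM in the other 3 tumours.

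The partners of the mitotic motors were higher in G2/M too. In a list of 12 partner genes, 10 were tested. All 10 were higher in G2/M than in neuronal, non-dividing and S-phase barcodes, against 22.0%, 7.23% and 3.06% of all genes tested. The filter on low counts keeps a gene that is high in G2/M alone, so these counts describe the partners that passed. Ect2 and Aurkb, for example, had 182 and 140 UMIs in G2/M and 4 each in neuronal barcodes. The partners were listed for mitotic roles and the states were defined by expression in the same cells. The count of partners is therefore not an independent test of the kinesin result. Prc1, which bundles midzone microtubules and recruits Kif4, had 1032 UMIs in G2/M and 28 in neuronal barcodes, a log2 fold change of 4.35. Tpx2, a spindle assembly factor, Incenp, the scaffold of the chromosomal passenger complex, and Nusap1, a spindle microtubule-binding protein, differed by 4.06, 3.65 and 3.69. Racgap1, the partner of Kif23 in centralspindlin, differed by 2.56. Of the partners, 7 of 10 were higher in S-phase than in non-dividing barcodes, against 4.80% of all genes tested. Cenpe and Kifc1, mitotic kinesins whose symbols fall outside the Kif pattern, were higher in G2/M than in neuronal barcodes by 4.13 and 4.03, the latter from 152 and 5 UMIs. Kifc1 has a near-identical copy, Kifc5b, so its counts are uncertain.

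Of the 9 tested transport kinesins, 8 were lower in G2/M than in neuronal barcodes, with log2 fold changes from -3.01 to -0.64. Kif5a, the neuronal heavy chain of conventional kinesin, was at 568, 360.3, 410.1 and 352 UPM in neuronal barcodes of tumours 1 to 4. In G2/M it was at 61.9, 43.6, 47.0 and 47.7. The groups did not overlap, and the log2 fold change was -3.01 ± 0.25 (SE; edgeR adjusted p = 5.6e-14), the lowest of the 18. It was the transport kinesin whose neuronal calls held in all alternatives in both comparisons. In non-dividing barcodes Kif5a was at 101, 129, 89.4 and 93.8, below every neuronal value (log2 fold change of neuronal over non-dividing 1.99 ± 0.25, edgeR adjusted p = 2.4e-08).

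Kif1b, which carries mitochondria and synaptic vesicle precursors in its different isoforms, was at 1919, 1517, 1241 and 1276 in neuronal barcodes and at 691, 653, 321 and 434 in G2/M. These did not overlap, and the log2 fold change was -1.51 ± 0.15 (edgeR adjusted p = 1.2e-11). Kif5c, a second heavy chain enriched in neurons, was at 2092, 1640.4, 715 and 823 in neuronal barcodes and at 722, 697, 259 and 309.8 in G2/M. Within every tumour Kif5c was higher in neuronal barcodes, although tumour 1 in G2/M reached the neuronal level of tumour 3. Its log2 fold change was -1.41 ± 0.14 (edgeR adjusted p = 3.3e-11), and without the tumour block the call ended (adjusted p = 0.063).

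The other called transport kinesins changed by less than 2-fold. Kif1a, which carries synaptic vesicle precursors, was at 388, 247, 252 and 207 in neuronal barcodes and at 186, 229, 94.0 and 76.8 in G2/M, a log2 fold change of -0.97 ± 0.23. Kif3a and Kif3b form the kinesin-2 heterodimer of cilia and axons. Kif3a was at 416, 360.3, 179 and 239 in neuronal barcodes and at 242, 245, 94.0 and 135 in G2/M (-0.73 ± 0.22), and its call ended with barcodes of at least 1000 UMIs (edgeR adjusted p = 0.075). Kif3b was at 166, 275, 52.6 and 69.1 against 82.5, 136, 39.2 and 39.7 (-0.90 ± 0.28, edgeR adjusted p = 0.0085), and its call ended without tumour 2 (adjusted p = 0.085) and with no filter on low counts (adjusted p = 0.063).

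Kif2a, a microtubule depolymerase that limits axon branches and also acts at spindle poles, was at 201, 199, 221 and 189 in neuronal barcodes. In G2/M it was at 155, 125, 62.7 and 101, without overlap (-0.82 ± 0.24, edgeR adjusted p = 0.0057), and its call ended without tumour 3 (adjusted p = 0.055). Kif21a, which slows microtubule growth in axons, was at 658, 351, 137 and 169.7 in neuronal barcodes and at 448, 256, 54.8 and 101 in G2/M (-0.64 ± 0.21, edgeR adjusted p = 0.011). The Kif21a call ended with barcodes of at least 1000 UMIs (adjusted p = 0.096) and with no filter on low counts (adjusted p = 0.080). Its spread between tumours exceeded its difference between states. For Kif1a, Kif3a, Kif3b and Kif21a the states overlapped, although in each tumour the neuronal value was the higher. Without the tumour block 2 of the 8 calls were left, those of Kif5a and Kif1b.

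**Figure D3:**
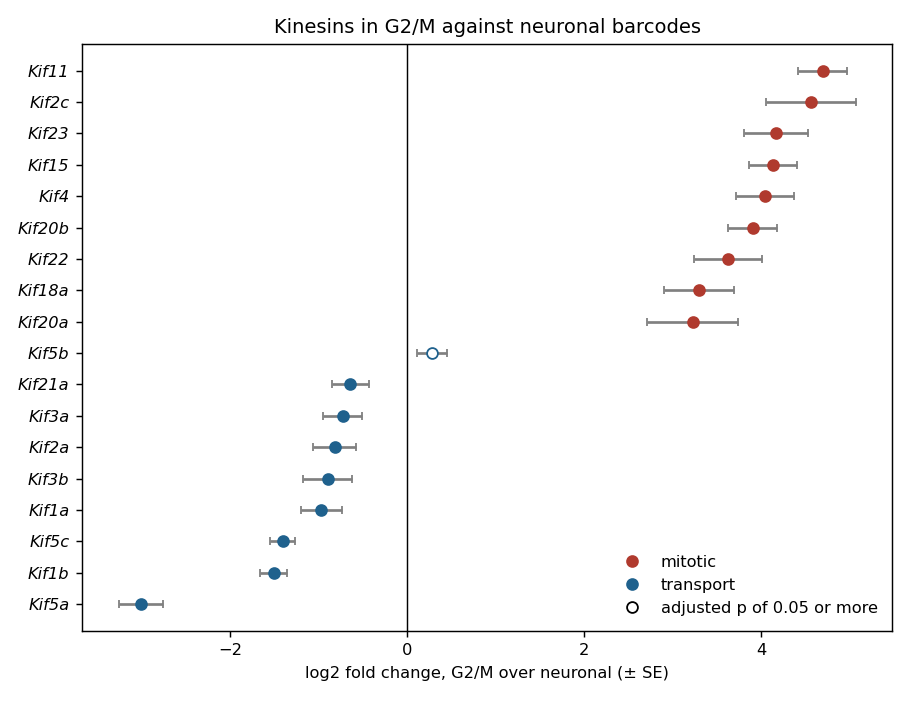
Log2 fold change of the 18 tested kinesins, G2/M over neuronal barcodes, with SE. Filled points passed edgeR's test. The 9 mitotic kinesins lie between 3.23 and 4.70, and the transport kinesins lie between -3.01 and 0.28.

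Kif5b, the heavy chain of conventional kinesin that most cell types use, was the tested kinesin that did not pass in this comparison. It was at 489.7, 332, 470.1 and 477 in G2/M and at 485, 341, 305 and 346 in neuronal barcodes. Tumours 1 and 2 had nearly equal levels in both states, and tumours 3 and 4 had more in G2/M. The log2 fold change was 0.28 ± 0.17 (SE; edgeR adjusted p = 0.20). In tumours 3 and 4 alone it was 0.54 ± 0.21 and passed (adjusted p = 0.031).

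The make-up of the Kif5 family differed between states. Kif5a took 18.1%, 15.4%, 28.7% and 23.1% of Kif5 UMIs in neuronal barcodes of tumours 1 to 4, and 4.86%, 4.06%, 6.06% and 5.71% in G2/M. Kif5b took 15.4%, 14.6%, 21.3% and 22.7% in neuronal barcodes and 38.5%, 31.0%, 60.6% and 57.1% in G2/M. Neither share overlapped between these states. Kif5c took 60.2% ± 9.62 in neuronal barcodes and 48.0% ± 15.2 in G2/M (SD, n = 4), with overlap. The shares are of UMIs at transcript 3′ ends, not corrected for length, and rest on 858 UMIs in G2/M and 1079 in neuronal barcodes.

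**Figure D4:**
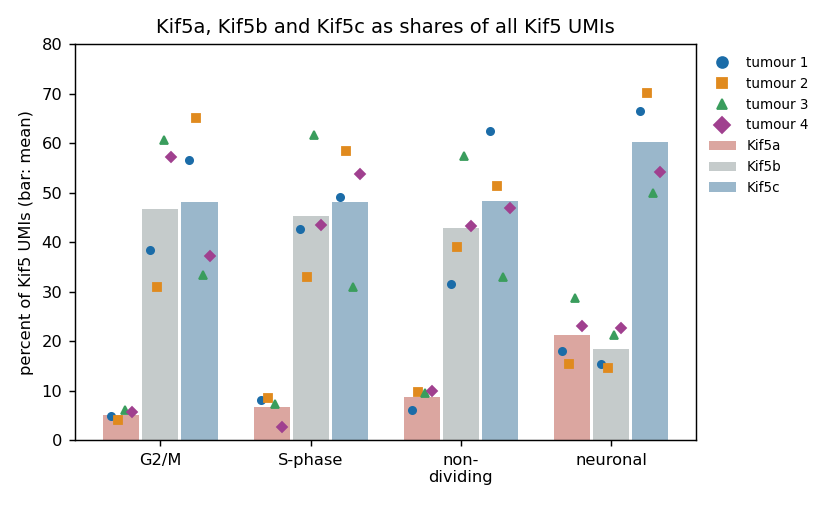
Kif5a, Kif5b and Kif5c as percent of all Kif5 UMIs by cell state. Bars are means of 4 tumours and points are tumours. The Kif5a points lie between 15.4% and 28.7% in neuronal barcodes and below 10% in the other states.

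Between neuronal and non-dividing barcodes 5 of the 9 transport kinesins were higher in neuronal barcodes, where 10.7% of all genes tested were higher and 11.4% lower. Besides Kif5a these were Kif5c (log2 fold change 1.07 ± 0.15), Kif1b (1.03 ± 0.15), Kif3b (0.84 ± 0.31) and Kif1a (0.82 ± 0.25). Without the tumour block 1 of the 5 calls was left, that of Kif5a. Kif5c and Kif1b lost theirs in that alternative alone (edgeR adjusted p = 0.28 and 0.21). Kif1a lost its call without tumour 3 (edgeR adjusted p = 0.13) or tumour 4 (adjusted p = 0.15). In tumours 1 and 2 alone Kif1a lost it too (adjusted p = 0.66). Kif3b, at an adjusted p of 0.048, kept its call in 4 alternatives and lost it in 9, among them those without tumour 1 (adjusted p = 0.17), tumour 2 (adjusted p = 0.32) or tumour 4 (adjusted p = 0.079). Kif2a, Kif3a, Kif21a and Kif5b did not pass, with log2 fold changes of 0.51, 0.30, -0.02 and -0.40. Kif2a passed after filters on genes per barcode, mitochondrial share and very high depth (0.80, adjusted p = 0.048) and in tumours 3 and 4 alone (1.10, adjusted p = 0.013).

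In G2/M against non-dividing barcodes 3 transport kinesins were lower, where 4.50% of all genes tested were lower. These were Kif5a (-1.02 ± 0.33), Kif21a (-0.67 ± 0.21) and Kif1b (-0.48 ± 0.16), at edgeR adjusted p of 0.030, 0.027 and 0.042. At an unadjusted p under 0.05, 4 were lower, and the share of all genes at that threshold was not computed. Kif5c was called lower when states were assigned after thinning and full counts were summed (-0.53, adjusted p = 0.030). None of the 3 passed DESeq2's Wald test (adjusted p = 0.054, 0.058 and 0.083), which called 7.4% of all genes in either direction. Kif5a lost its call when any 1 tumour was left out (adjusted p = 0.059 to 0.14). Kif21a lost it without tumour 1 (adjusted p = 0.19), 2 (adjusted p = 0.078) or 3 (adjusted p = 0.054). Kif1b lost it without tumour 1 (adjusted p = 0.54) or 3 (adjusted p = 0.058). In tumours 1 and 2 alone 2 of the 3 were called again, and in tumours 3 and 4 alone 0 of 3, where 8.14% and 9.03% of all genes were called in either direction.

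In S-phase against non-dividing barcodes 0 of 9 transport kinesins passed edgeR's or DESeq2's test. With edgeR 4.80% of all genes tested were higher and 2.68% lower, and DESeq2 called 5.11% in either direction. The median log2 fold change was -0.31, against -0.02 over all genes tested. At an unadjusted p under 0.05, 3 were lower (Kif1b, Kif21a and Kif5a), again without a share of all genes at that threshold. Without tumour 2 Kif1b was lower in S-phase (-0.63 ± 0.18, edgeR adjusted p = 0.018), and without tumour 4 Kif21a was lower (-0.86 ± 0.27, adjusted p = 0.046). With states assigned after thinning and full counts summed, Kif5a and Kif5c were lower in S-phase (adjusted p = 0.041 and 0.035). Kif5a was also lower there with at least 1000 UMIs (-1.94, adjusted p = 0.032) and in tumours 3 and 4 alone (-1.48, adjusted p = 0.047). Kif21a was lower in tumours 1 and 2 alone (-1.100, adjusted p = 0.0063). Between G2/M and S-phase 0 of 9 passed with either tool or at an unadjusted p under 0.05. With edgeR 3.06% of all genes were higher and 1.27% lower, and DESeq2 called 2.82% in either direction. At such shares a count of 0 of 9 does not set the transport kinesins apart in either comparison. Between G2/M and S-phase the log2 fold changes lay between -0.31 for Kif2a and 0.37 for Kif1a.

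**Figure D5:**
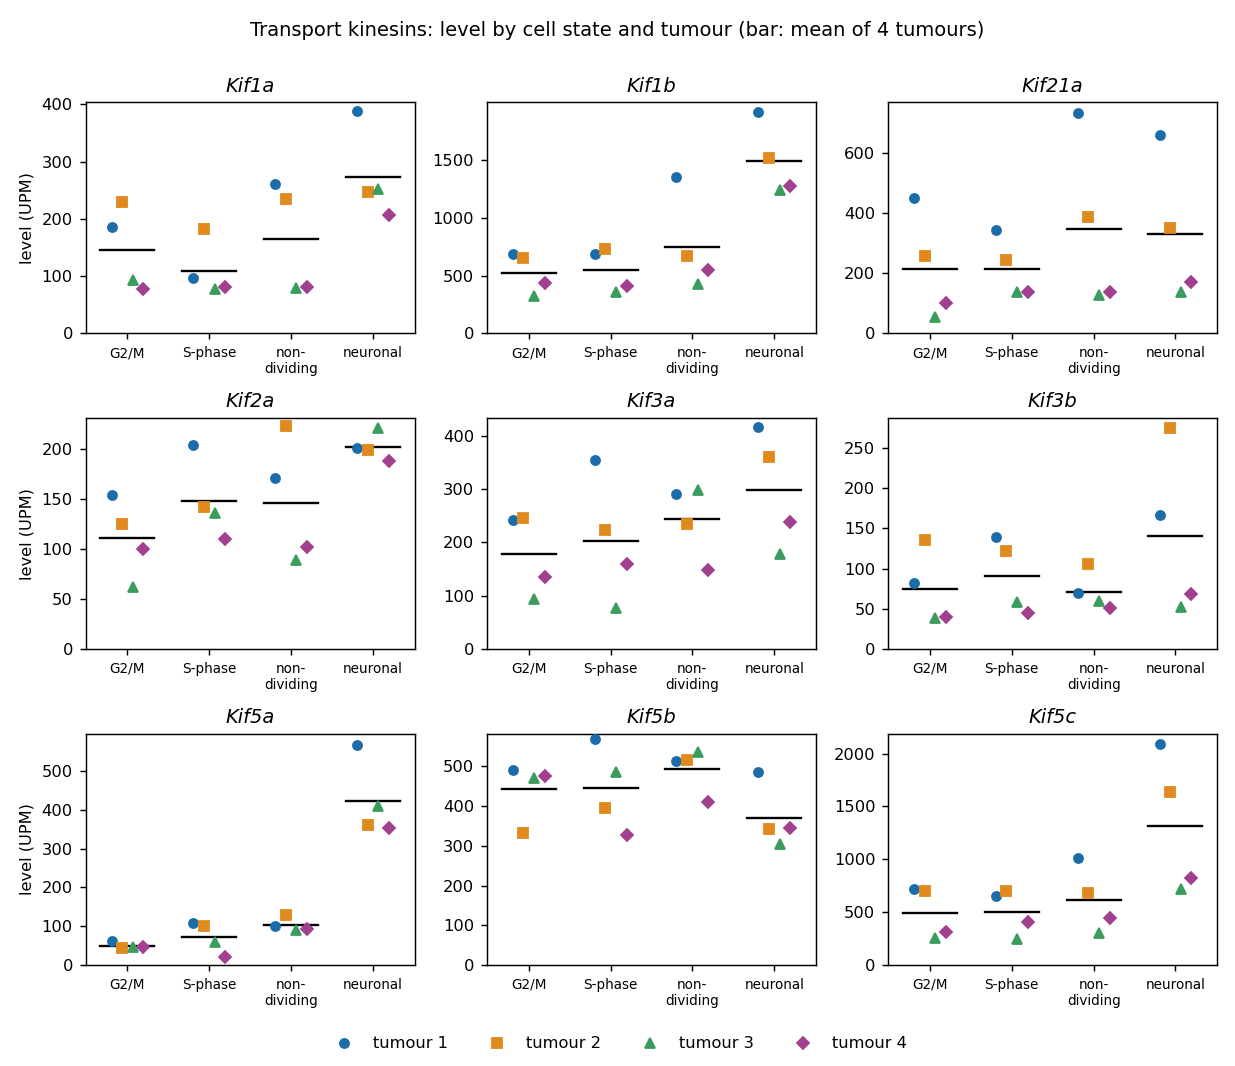
Level of the 9 tested transport kinesins in UPM (linear axes from 0, one scale per gene) by cell state. Points are tumours and black bars are means. Kif5a and Kif1b in neuronal barcodes lie above G2/M in every tumour, and Kif5b lies between 305 and 568 in all states.

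Klc1 is a light chain that binds Kif5 cargo, and Kifap3 is the cargo subunit of kinesin-2. Both were lower in G2/M than in neuronal barcodes, by log2 fold changes of -0.998 and -0.99 (edgeR adjusted p = 0.00021 and 5.9e-05). Both were higher in neuronal than in non-dividing barcodes, by 0.67 and 1.11. Of 15 tested adaptors and microtubule-associated proteins of the axon, 10 were lower and 1 was higher in G2/M than in neuronal barcodes, against 17.7% and 22.0% of all genes tested. Ank2 (ankyrin-B), Dcx (doublecortin), Map2 and Map1b differed by -2.52, -1.98, -1.78 and -1.65, and Dclk1, a doublecortin-like kinase, was the higher one at 0.57. Of 12 tested genes of dynein, the motor that walks the other way, and of its cofactors, 6 were lower and Dynll1, a light chain with many other partners, was higher in G2/M, against the same 17.7% and 22.0% of all genes tested. The dynein intermediate chain Dync1i2, the dynein regulator Pafah1b1 (Lis1), the light chain Dynlrb1 and the cargo adaptor Bicd1 differed by -0.68, -0.56, -0.59 and -0.93.

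The remaining 13 kinesins were too rare for the filter on low counts. Kif14, which holds citron kinase at the midbody, had 33, 28, 8 and 28 UMIs in G2/M of tumours 1 to 4 and 1, 1, 0 and 1 in neuronal barcodes. Kif18b, which shortens astral microtubules, had 8, 12, 4 and 18 against 1, 1, 0 and 0. Without the filter both were higher in G2/M, with fitted log2 fold changes of 4.24 ± 0.56 and 3.45 ± 0.76 (edgeR adjusted p = 3.1e-12 and 0.00010). Kif21b, a neuronal relative of Kif21a, had 2, 3, 3 and 5 UMIs in G2/M and 14, 6, 7 and 12 in neuronal barcodes. Its ratio of neuronal to G2/M level was 5.26, with an exact 95% Poisson interval of 2.75 to 10.7. Kif13a had 10, 6, 2 and 7 UMIs in G2/M and 21, 9, 4 and 4 in neuronal barcodes, and its level was lower in G2/M in all 4 tumours. Kif3c had 5, 6, 1 and 4 against 11, 3, 7 and 7, and in tumour 2 its level was higher in G2/M, at 32.7 against 28.4 UPM. Both were called lower in G2/M without the filter (edgeR adjusted p = 0.045 and 0.029), and the states overlapped.

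Kif13b, a transporter of membrane cargo, had 6, 8, 5 and 7 UMIs in G2/M and 3, 3, 3 and 6 in neuronal barcodes, or 33.05 ± 11.003 and 29.6 ± 7.04 UPM (SD, n = 4). Kif16b, an early endosome motor, and Kif1c had 24 and 28 UMIs over all 4 states. Over all barcodes with at least 500 UMIs, Kif16b had 9, 7, 6 and 9 UMIs and Kif1c had 9, 8, 4 and 15 in tumours 1 to 4.

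Among kinesins of the cilium and centriole, Kif24, which acts at centrioles against cilium assembly, had 16 UMIs in G2/M, 15 in S-phase, 3 in non-dividing and 0 in neuronal barcodes. By tumour these were 3, 7, 1 and 5 in G2/M, 3, 7, 4 and 1 in S-phase and 0, 1, 1 and 1 in non-dividing barcodes. With 0 neuronal UMIs set to a floor of 3 counts over the group, the ratio of its G2/M to its neuronal level was 3.04. The lower limit of the exact 95% Poisson interval of that ratio, with the 0 kept, was 2.20. Kif7, which sits at the tip of the cilium and regulates Gli factors in hedgehog signalling, had 7, 3, 9 and 1 UMIs in the G2/M, S-phase, non-dividing and neuronal states. It had 0, 6, 10 and 11 UMIs over the barcodes of tumours 1 to 4. Kif7 passed in no comparison with edgeR, also without the filter. The ratio of its neuronal to its non-dividing level was 0.115, with an exact 95% Poisson interval of 0.0026 to 0.827 that covers counting error only and not the spread between tumours. Kif27 had 4 UMIs over the 4 states, and Kif6 and Kif26a had 1 each.

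Per barcode, mitotic kinesins were seen in most G2/M barcodes. Whether the mitotic kinesin UMIs of neuronal barcodes are background or transcripts of those cells was not tested. After thinning to 500 nuclear-encoded UMIs, which left out 43 to 62 barcodes per state, 74.3% ± 5.98 of G2/M barcodes had a UMI of any mitotic kinesin (SD, n = 4). The share was 28.5% ± 5.12 in S-phase, 9.17% ± 4.14 in non-dividing and 9.09% ± 5.72 in neuronal barcodes. Before thinning it was 85.2%, 40.8%, 14.6% and 13.6%, at median depths of 925.5, 829.5, 726 and 691 UMIs. UMIs of at least 3 different mitotic kinesins were present in 360 of 788 G2/M barcodes and in 0 of 653 neuronal barcodes. For transport kinesins the thinned shares ran from 65.0% ± 11.5 in G2/M to 85.2% ± 6.79 in neuronal barcodes. The 460 barcodes between the thresholds had a mitotic sum of 556 UPM, between the S-phase and the non-dividing means.

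Kinesin levels also differed between the tumours, and the deviations are set here beside the genomic span of each gene. Averaged over the states, Kif21a, which spans 117108 bases, deviated from the mean of the 4 tumours by 1.251, 0.44, -0.96 and -0.74 (log2) in tumours 1 to 4. Kif5c, which spans 155493 bases, deviated by 0.75, 0.48, -0.80 and -0.43 in tumours 1 to 4. Kif22 and Kif20a, which span 14739 and 8654 bases, deviated by -0.09 and -0.17 in tumour 1 and by 0.06 and 0.22 in tumour 3. Span did not order all of them: Kif13b, at 157127 bases, deviated by -0.07 and 0.37 in tumours 1 and 3, and Kif18a, at 61012 bases, by 0.63 and -1.26.

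Over the 28 kinesins with at least 20 UMIs, Spearman's rho of span with deviation was 0.57, 0.23, -0.28 and -0.62 in tumours 1 to 4. Over 3402 of the 3623 tested genes it was 0.53, 0.51, -0.50 and -0.55. These are descriptions across genes, the 4 deviations of a gene sum to 0, and genes of a tumour share its library. The mitochondrial share moved with the same split of tumours, and its part was not tested. In tumours 1 and 2 alone, 8 of the 9 mitotic kinesins called higher in G2/M than in neuronal barcodes could be tested, all but Kif20a, and all 8 were called again. In tumours 3 and 4 alone all 9 were. Of the 8 transport kinesins called lower, 6 were called again in tumours 1 and 2 alone, all but Kif1a and Kif2a. In tumours 3 and 4 alone 7 could be tested, all but Kif3b, and all 7 were called again. Of all genes tested, 25.5% were called in either direction in tumours 1 and 2 alone and 35.0% in tumours 3 and 4 alone.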

How the data were processed

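Drop-seq tables of 4 tumours were used, 1 per labelled sample. The deposited values are whole-number UMI counts per gene and barcode, not normalized. The submitters' processing notes name STAR and mm10. Other steps, including the barcode filter, are not given in the sources used here. Cell names in 6 more tables (11203 cell columns) fit no labelled sample, and those tables were left out.

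Barcodes with at least 500 UMIs were assigned to states from marker shares. The thresholds were chosen from the data. Non-dividing barcodes had G2/M and S-phase shares under 0.75% and a neuronal share under 1.5%. Set aside were 460 barcodes between thresholds, 26 that were both neuronal and cycling, and 132 with at least 3 different markers of another cell type. No doublet caller was run. Within 1 UMI above the threshold lay 39 of 788 G2/M, 69 of 556 S-phase and 61 of 653 neuronal barcodes. Within 1 UMI below it lay 63, 171 and 75 barcodes, and 56 of the 171 were G2/M barcodes.

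Counts were summed per tumour and state into 16 sums of 85218 to 377660 nuclear-encoded UMIs. They were tested with edgeR 4.0.16 in R 4.3.3 (TMM, filterByExpr, quasi-likelihood, Benjamini-Hochberg at 0.05). The tumour was a block because its 4 sums come from 1 animal. Deviations of sums of the same tumour from the state means correlated at r of 0.41 to 0.79 across 3730 genes. Genes used to assign states were left out of calls. The labels do not state that the tumours come from separate mice, and p-values measure the spread between these samples. The fit was also run on counts simulated without differences between tumours, which the real sums do have. For G2/M against neuronal sums it recovered 85.4% of genes raised 2-fold and 64.4% of genes lowered 2-fold. It recovered 100% of the 4-fold changes, and 4.73% of its calls were false. Intervals are exact at 95% and, like floors, cover counting error only.

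The kinesins, lists and roles were chosen with earlier results of these data known. Kinesins with at least 20 UMIs are given by tumour, the rarest of them summed over states, and the rest by count. From the partner lists up to 4 members with the most UMIs per direction, or those that form a complex with a kinesin, are named. The latter were chosen after their values were seen. Alternatives were DESeq2 1.42.0, other scalings, no filter, other barcode limits and thresholds, thinning, no block and leaving out tumours. For thinning, states were assigned from counts thinned to 500 nuclear-encoded UMIs per barcode, and the full counts were then summed. Barcodes with fewer such UMIs were left out of that alternative.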

Additional observations from a re-analysis of the deposited data

Results flagged for a closer look

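In 7 of 111 sets of 4 tumours checked, a single tumour lay far from the other 3 by Dixon's test at 95%, and chance flags about 1 in 20. Kif18a was at 0 UPM (UMIs per 1000000 nuclear-encoded UMIs) in S-phase of tumour 3 and at 53.2 to 60.7 in the other tumours. Kif5b was at 332 in G2/M of tumour 2 and at 470.1 to 489.7 in the others. Kif3c was at 46.9 in non-dividing barcodes of tumour 4, from 11 UMIs, and at 19.9 to 23.5 in the others.

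The other 4 were genes with no UMI in the remaining 3 tumours. Kif16b was at 19.9 in non-dividing barcodes of tumour 3, from 2 UMIs. Kif1c was at 25.1 in neuronal barcodes of tumour 4, from 4 UMIs. Kif20a was at 8.53 in non-dividing barcodes of tumour 4, from 2 UMIs. Kif7 was at 10.5 in neuronal barcodes of tumour 3, from 1 UMI.

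A further 4820 kinesin UMIs lay in the 3512 barcodes under 500 UMIs, which were used in no comparison.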

How the results depend on the processing

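Of 744 recomputed log2 fold changes of called kinesins, 659 stayed past the threshold, 85 did not and 0 changed direction. The calls that held in every alternative in which the gene was tested were 11 of 17 (G2/M against neuronal), 8 of 12 (G2/M against non-dividing), 0 of 6 (S-phase against non-dividing), 1 of 5 (neuronal against non-dividing) and 5 of 9 (G2/M against S-phase). With the replicate block removed, kinesins called fell from 17 to 11, 12 to 8, 6 to 1, 5 to 1 and 9 to 5 in that order, while the share of all genes called fell from 39.7% to 12.8%, 11.7% to 2.46%, 7.48% to 0.718%, 22.1% to 2.68% and 4.33% to 0.69%. Barcodes of at least 1000 UMIs gave 10, 5 and 5 in the comparisons of G2/M with neuronal, non-dividing and S-phase barcodes, with 13 kinesins tested in place of 18 and 31.9%, 8.0% and 4.23% of all genes called. Stricter thresholds gave 7 in G2/M against non-dividing (10.2% of all genes). Tumours 1 and 2 alone, an alternative chosen after seeing the data, gave 3 in S-phase against non-dividing (3.07%). Leaving out 1 tumour gave 15 to 18, 9 to 10, 5 to 7, 3 to 5 and 7 to 10 calls in the same order, with 28.9% to 35.3%, 7.37% to 9.27%, 4.47% to 6.43%, 13.4% to 20.4% and 2.46% to 3.43% of all genes, and the 3 was without replicate 4. The causes were not tested.

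Shares of barcodes, 24.2% G2/M, 17.0% S-phase, 18.7% non-dividing and 20.8% neuronal on average, were 34.1%, 20.1%, 13.7% and 12.4% with at least 1000 UMIs and 18.6%, 14.85%, 10.7% and 15.2% with stricter thresholds. With filters on genes per barcode, very high depth and a mitochondrial share of at most 10%, the neuronal share was 25.4%. The 13 untested kinesins were below the filter on low counts.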
